A study of Homo sapiens with 6 samples.

Results

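The aldehyde dehydrogenase genes described here are 10 members of the human ALDH family, ALDH1A1, ALDH1A3, ALDH2, ALDH3A1, ALDH3A2, ALDH3B1, ALDH7A1, ALDH9A1, ALDH16A1 and ALDH18A1, found by gene name among 58174 genes. Messenger RNA was measured in 6 samples of cells labelled Huh-7, the name of a long-established human liver cancer line. In 3 samples the cells had been transfected with mimics of miR-27a-3p, which are synthetic RNAs that imitate the mature microRNA, and in 3 samples with a negative control (NC), both with a lipid reagent and 48 h before RNA was taken. The series title concerns miR-27a-3p and the response of hepatocellular carcinoma to cisplatin, and the labels name no cisplatin treatment in any sample. Whether samples of 1 group came from different cultures is not in the labels, so p-values measure only their spread, which could be technical.

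The liver label was not borne out by liver transcripts. Of 17 genes of the hepatocyte lineage, none reached a mean of 1 FPKM (fragments per kilobase of transcript, scaled to the size of the library), 14 stayed under 0.1 FPKM in every sample and 6 were listed at 0 throughout. ALB and AFP, which encode the secreted proteins albumin and alpha-fetoprotein, were among those under 0.1 FPKM. The highest value in the list was 1.49 FPKM, for SERPINA1 in a control sample, and the summed level was 1.24 to 2.17 FPKM in controls and 0.95 to 1.31 in mimic samples. The cells are therefore called the cells labelled Huh-7. Of the markers of other cells, COL1A1 of the fibroblast list and CD68 of the leukocyte list were the only ones with a mean of at least 1 FPKM. COL1A1 was lower in mimic samples (17.4 ± 0.408 against 7.99 ± 1.43 FPKM, SD, n = 3) and CD68 was higher (8.17 ± 0.758 against 16.2 ± 4.71). For 6 fibroblast genes the summed level ran from 17.7 to 18.3 FPKM in controls and 7.73 to 10.5 in mimic samples. For 6 leukocyte genes it ran from 8.67 to 10.6 and 11.3 to 19.4. Most of each sum was COL1A1 or CD68, so neither sum describes its list as a whole. Some lower genes of these lists went the other way. Mean PDGFRB (fibroblast) rose from 0.523 to 0.95 FPKM and LUM (fibroblast) from 0.0288 to 0.101. Mean CD14 (leukocyte) fell from 1.27 to 0.404. Sums of 4 endothelial and 5 squamous or basal genes stayed under those of the fibroblast list, at 0.51 to 2.91 and 0.75 to 1.38 FPKM over both groups. The part of these genes in the results was not tested. In bulk RNA, fewer cells of a type and less RNA per cell cannot be told apart.

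Aldehyde dehydrogenases oxidise aldehydes to carboxylic acids with NAD or NADP as the acceptor of electrons. They clear aldehydes from alcohol, lipid peroxidation and amino acid breakdown, and they make signalling acids such as retinoic acid. In liver the best known is ALDH2, which removes the acetaldehyde formed from ethanol. Members of the ALDH1A and ALDH3A branches are used as markers of stem-like or drug-tolerant tumour cells.

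Because the agent is a microRNA, the 3' UTR of each gene was searched for words that pair with its seed, bases 2 to 8 of the mature strand. The classes were ACTGTGAA (8mer), ACTGTGA (7mer-m8) and CTGTGAA (7mer-A1), each read on the sense strand and counted once where a shorter word lies inside a longer one. The mature strand, from RefSeq (GRCh38.p14, chr19:13836447-13836467, minus strand), has its seed in capitals. The other lines show each member's matches in its longest 3' UTR in GENCODE 29 (GRCh38), with the matching word in capitals, and the only 8mer found in the family, which lies in ALDH4A1, a relative outside the 10.
hsa-miR-27a-3p: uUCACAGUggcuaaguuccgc
ALDH1A3, 7mer-A1, chr15:100914959-100914988, plus strand: ctataggttgtCTGTGAAatcgcagtcctg
ALDH2, 7mer-m8, chr12:111812967-111812996, plus strand: tactcactgtaACTGTGAgaggatcggctc
ALDH2, 7mer-A1, chr12:111814989-111815018, plus strand: tttggcttattCTGTGAAggataaaacaga
ALDH7A1, 7mer-m8, chr5:126544844-126544873, minus strand: gcattattatgACTGTGAcagtgactaatc
ALDH4A1, 8mer, chr1:18871702-18871731, minus strand: gttcttaggggACTGTGAAagtgttgggtc

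Among the 10 members, 3 held a match and none held an 8mer. Of 11465 tested genes with an annotated 3' UTR, 28.9% held a match of any class and 6.6% an 8mer. ALDH1A3 had its match at position 197 of 1853 bases, ALDH7A1 at position 103 of 3124, and ALDH2 at positions 3403 and 5425 of 7954. ALDH1A1, ALDH3A1, ALDH3A2, ALDH3B1, ALDH9A1, ALDH16A1 and ALDH18A1 had none, which says only that these words are not in those UTRs. A match is a sequence description and not a shown binding site.

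In mimic samples ALDH3A1 and ALDH16A1 rose, by 1.98-fold and 1.71-fold on the log2(FPKM + 0.5) scale, and ALDH1A3 fell to 0.408 of the control level. The other 6 members tested did not pass the test, and ALDH1A1 was too low to be tested. Every gene averaging 1 FPKM or more over the 6 samples was tested with limma, with Benjamini-Hochberg adjustment over all 14439 of them. The 3 calls among 9 tested members stand against 51.6% of all tested genes called (12.0% higher and 39.6% lower). The groups did not overlap in 4 of the 9, against 60.5% of all tested genes. The median log2 fold change was 0.25 over the 9 and -0.29 over all tested genes.

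The median of all tested genes lay under 0 on the deposited scale, and its size depended on level. It was -0.29 over all tested genes and -0.13 over those averaging 5 FPKM or more, a filter that 8 of the 9 members pass. When only the 9456 genes passing that filter were tested, 1438 were called higher and 2916 lower. Of the 8 members among them, 2 were called higher and 0 lower. Genes at 1 FPKM or more numbered 15109 to 15494 in control samples and 13007 to 13250 in mimic samples. After median-of-ratios scaling, which brings the median of all genes to 0.01, 26.9% of all genes were called higher and 27.4% lower. On that scale 5 members were higher and 1 lower, with a median of 0.57 over the 9. ALDH3B1, ALDH9A1 and ALDH18A1 were called higher on that scale and not on the deposited one, and ALDH3A2 and ALDH7A1 changed the sign of their differences. ALDH3A1, ALDH16A1 and ALDH1A3 kept direction and call on both scales, with log2 fold changes of 1.30, 1.08 and -1.02 after scaling.

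**Figure D1:**
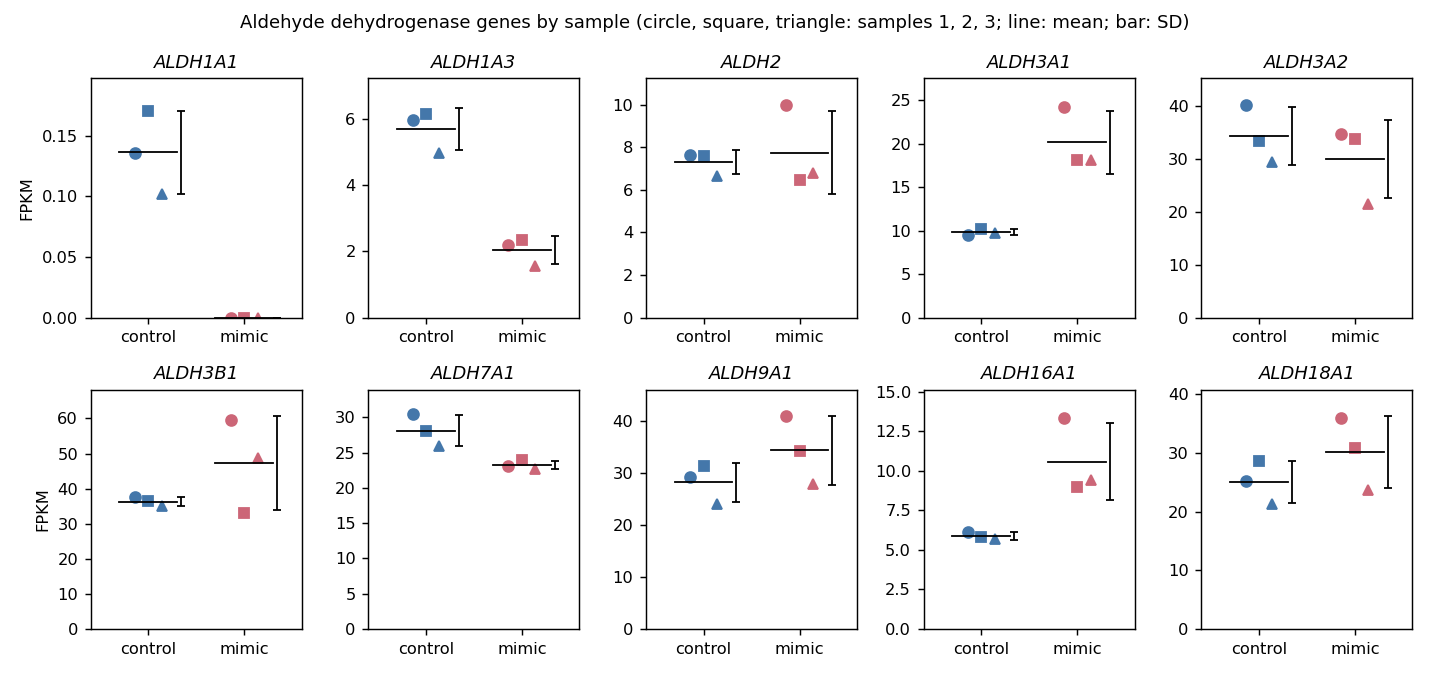
FPKM of the 10 members in each sample, controls in blue and mimic samples in red, with circle, square and triangle for samples 1, 2 and 3, the group mean as a line and the SD as a bar; each panel has its own axis from 0. ALDH3A1 lies at 9.53 to 10.2 FPKM in controls and 18.1 to 24.3 in mimic samples, ALDH1A3 at 4.98 to 6.16 and 1.57 to 2.35, while ALDH2 and ALDH9A1 overlap between groups.

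Among the retinaldehyde dehydrogenases, which make retinoic acid from retinal, ALDH1A3 had the highest FPKM in every sample. ALDH1A3 (ENSG00000184254, chromosome 15, 100877714 to 100916626, plus strand, hg38) had control values of 5.96, 6.16 and 4.98 FPKM (samples 1, 2 and 3) and mimic values of 2.20, 2.35 and 1.57. All 3 mimic values lay under the lowest control. Its log2 fold change was -1.29 (SE 0.17, limma adjusted p = 0.00051), which is at percentile 11.2 of all tested genes counted from the most negative. Its 7mer-A1 match is the first UTR word printed above. The antisense genes AC015712.2 and AC015712.7 overlap ALDH1A3, and AC015712.2, the higher of them in every sample, was at 2.09 to 3.0 FPKM in controls and 0.502 to 0.676 in mimic samples. The strand setting of the counting is not given, so reads of the gene and its antisense partners cannot be told apart.

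ALDH1A1 (ENSG00000165092, chromosome 9, 72900662 to 73080442, minus strand), the best known retinaldehyde dehydrogenase of liver and the main target of ALDH activity stains, was very low. It was at 0.136, 0.171 and 0.102 FPKM in the controls and was listed at 0 in all 3 mimic samples. Every mimic value was under every control value, but at such levels no fold is given. With no filter on low values the gene entered the test and was called lower (limma adjusted p = 0.0131), where the size of the fitted difference is set by the pseudocount of 0.5. Under that setting lower was the common direction, with 8755 of 35796 tested genes called lower and 1530 higher. Since ALDH1A1 was listed at 0 in every mimic sample, its planned ratio to ALDH1A3 within samples was not computed.

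ALDH3A1 (ENSG00000108602, chromosome 17, 19737984 to 19748943, minus strand), a cytosolic enzyme for aromatic and medium-chain aldehydes and a classic inducible gene of the aryl hydrocarbon receptor, rose the most. It was at 9.53, 10.2 and 9.74 FPKM in the controls and 24.3, 18.1 and 18.1 in the mimic samples. The controls were tight, mimic sample 1 was the highest, and the groups were well apart. The rise was 0.99 on the log2 scale (SE 0.15, limma adjusted p = 0.000988, percentile 97.1).

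ALDH3A2 (ENSG00000072210, chromosome 17, 19648136 to 19677598, plus strand), which oxidises long-chain fatty aldehydes at the endoplasmic reticulum and is mutated in Sjögren-Larsson syndrome, lies near ALDH3A1 on the same chromosome. It was at 40.1, 33.3 and 29.4 FPKM in controls and 34.6, 33.6 and 21.4 in mimic samples. The groups overlapped, and sample 3 was the lowest in both. The difference of -0.22 on the log2 scale (SE 0.21) did not pass the test (limma adjusted p = 0.418), and it was 0.10 after median-of-ratios scaling.

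The balance of the pair shifted within samples, a measure that depends little on how samples are scaled. In control samples 1, 2 and 3 the FPKM of ALDH3A1 was 23.8%, 30.6% and 33.1% of that of ALDH3A2, and in mimic samples 70.2%, 53.8% and 84.6%. The ratio was higher in each mimic sample than in any control. The mean log2 ratio, taken on the log2(FPKM + 0.5) scale, was -1.74 ± 0.25 (SD, n = 3) in controls and -0.54 ± 0.32 in mimic samples, a difference of 1.20 (exact permutation test, two-sided, p = 0.1, which is the smallest that 3 against 3 samples allow). At that floor the test cannot decide. The ratios describe unequal change in these samples and do not show that either gene stayed the same.

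ALDH3B1 (ENSG00000006534, chromosome 11, 68008578 to 68029282, plus strand), a membrane-bound enzyme for aldehydes from lipid peroxidation, had the highest mean FPKM of the 10 in both groups. It was at 37.5, 36.4 and 35.0 FPKM in controls and 59.7, 33.0 and 48.8 in mimic samples. Mimic samples 1 and 3 lay above all controls and mimic sample 2 lay below them. The log2 fold change of 0.33 (SE 0.21) did not pass (limma adjusted p = 0.212), but it was called without mimic sample 2 (0.57, limma adjusted p = 0.0247) and after median-of-ratios scaling (0.65, limma adjusted p = 0.0356). An antisense gene inside its span, AC004923.4, was at 4.30 to 4.83 FPKM in controls and 2.63 to 3.17 in mimic samples.

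ALDH2 (ENSG00000111275, chromosome 12, 111766887 to 111817529, plus strand), the mitochondrial acetaldehyde dehydrogenase, was at 7.66, 7.58 and 6.66 FPKM in controls and 10.0, 6.46 and 6.78 in mimic samples. Mimic sample 1 was above and mimic sample 2 below all controls. It differed by 0.06 on the log2 scale (SE 0.18, limma adjusted p = 0.805) and by -0.13 without mimic sample 1. Its UTR, the longest of the 10, holds both of the words printed for it.

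Among the enzymes of amino acid and amine breakdown, ALDH7A1 (ENSG00000164904, chromosome 5, 126531200 to 126595418, minus strand), also called antiquitin, acts in lysine catabolism. It was at 30.4, 28.0 and 25.9 FPKM in controls and 23.1, 23.9 and 22.7 in mimic samples. The groups did not overlap, and the mimic values spanned a narrow range. Even so the log2 fold change of -0.27 (SE 0.12) did not pass (limma adjusted p = 0.103). It was close to the median of all genes and was 0.05 after median-of-ratios scaling.

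ALDH9A1 (ENSG00000143149, chromosome 1, 165662216 to 165698863, minus strand), which serves carnitine synthesis by oxidising an amino aldehyde, was at 29.3, 31.4 and 24.1 FPKM in controls and 41.0, 34.2 and 27.9 in mimic samples. Mimic samples 1 and 2 were above all controls and mimic sample 3 fell among them. The log2 fold change was 0.27 (SE 0.18, limma adjusted p = 0.232), and 0.59 after median-of-ratios scaling (limma adjusted p = 0.00854).

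ALDH18A1 (ENSG00000059573, chromosome 10, 95605929 to 95656706, minus strand) encodes pyrroline-5-carboxylate synthase, the enzyme that commits glutamate to proline and ornithine. It was at 25.2, 28.6 and 21.4 FPKM in controls and 35.9, 30.9 and 23.6 in mimic samples. As with ALDH9A1, mimic sample 3 lay among the controls and the other mimic samples above them. The log2 fold change was 0.25 (SE 0.19, limma adjusted p = 0.285), and 0.57 after median-of-ratios scaling (limma adjusted p = 0.0129).

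ALDH16A1 (ENSG00000161618, chromosome 19, 49453169 to 49471048, plus strand), a large family member whose mammalian form is thought to lack catalytic activity, was at 6.14, 5.84 and 5.66 FPKM in controls and 13.4, 8.98 and 9.42 in mimic samples. Every mimic value was above every control, with sample 1 the highest. It rose by 0.78 on the log2 scale (SE 0.17, limma adjusted p = 0.00545, percentile 94.6). PIH1D1 overlaps it on the other strand and was at 43.4 to 52.1 FPKM in controls and 54.5 to 61.2 in mimic samples. The strand setting is not given, so reads of the overlap cannot be told apart.

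**Figure D2:**
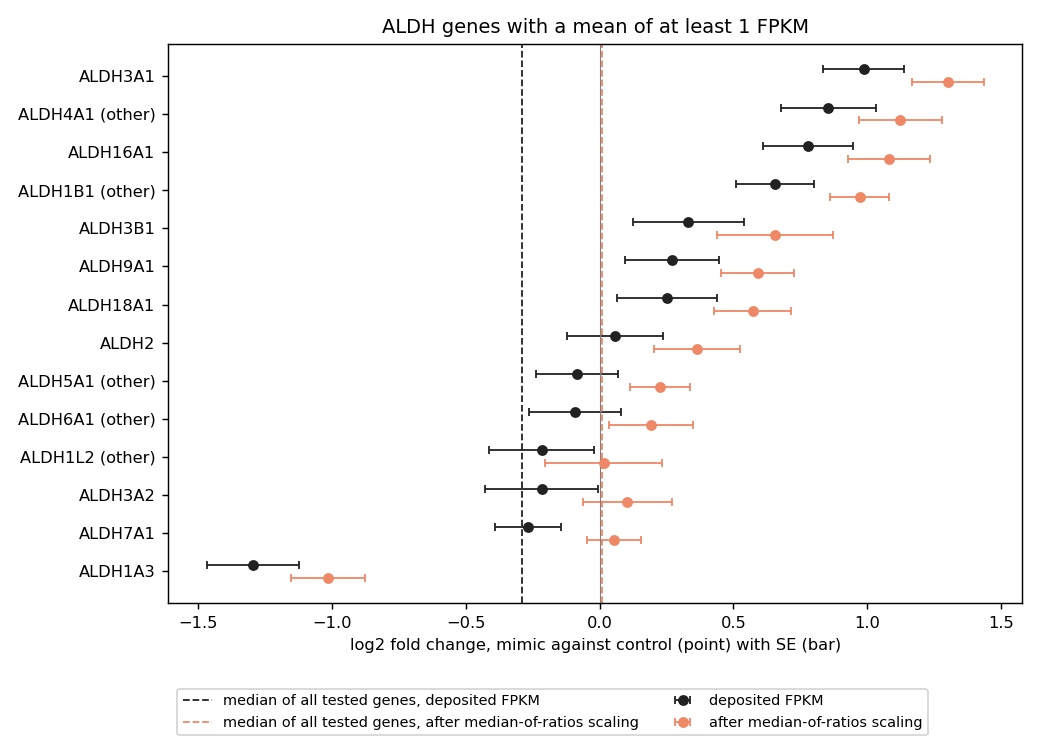
Log2 fold change of mimic against control (point) with its SE (bar) for the 9 tested members and 5 tested relatives marked "other", on deposited FPKM (black) and after median-of-ratios scaling (orange); dashed lines give the median of all tested genes on each scale, -0.29 and 0.01. ALDH3A1 is at the top with 0.99 and ALDH1A3 at the bottom with -1.29 on the deposited scale.

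Levels per unit of length can be set side by side. In controls the order of mean FPKM was ALDH3B1 (36.3), ALDH3A2 (34.3), ALDH9A1 (28.2), ALDH7A1 (28.1), ALDH18A1 (25.1), ALDH3A1 (9.83), ALDH2 (7.30), ALDH16A1 (5.88), ALDH1A3 (5.70) and ALDH1A1 (0.136). Within the first 5 each gene overlapped its neighbour over the samples, as ALDH16A1 and ALDH1A3 did. The steps from ALDH18A1 to ALDH3A1, from ALDH3A1 to ALDH2, from ALDH2 to ALDH16A1 and from ALDH1A3 to ALDH1A1 lay beyond the spread. In mimic samples ALDH3A1 (20.2 ± 3.57 FPKM, SD, n = 3) overlapped ALDH7A1 (23.3 ± 0.606), which stood far above it in controls.

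ALDH3A1 made up 5.46% ± 0.51 (SD, n = 3) of their summed FPKM in controls and 9.80% ± 0.32 in mimic samples. ALDH1A3 went from 3.15% ± 0.12 to 1.00% ± 0.20 and ALDH16A1 from 3.26% ± 0.19 to 5.13% ± 0.40. ALDH7A1 held 15.6% ± 0.56 in controls and 11.5% ± 1.78 in mimic samples, and ALDH3B1 20.1% ± 1.16 and 22.9% ± 5.10. These shares are linked, since a gain by 1 gene lowers the rest. The sum itself was 191.9, 187.7 and 163.0 FPKM in controls and 244.2, 191.6 and 180.3 in mimic samples, with overlapping groups.

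**Figure D3:**
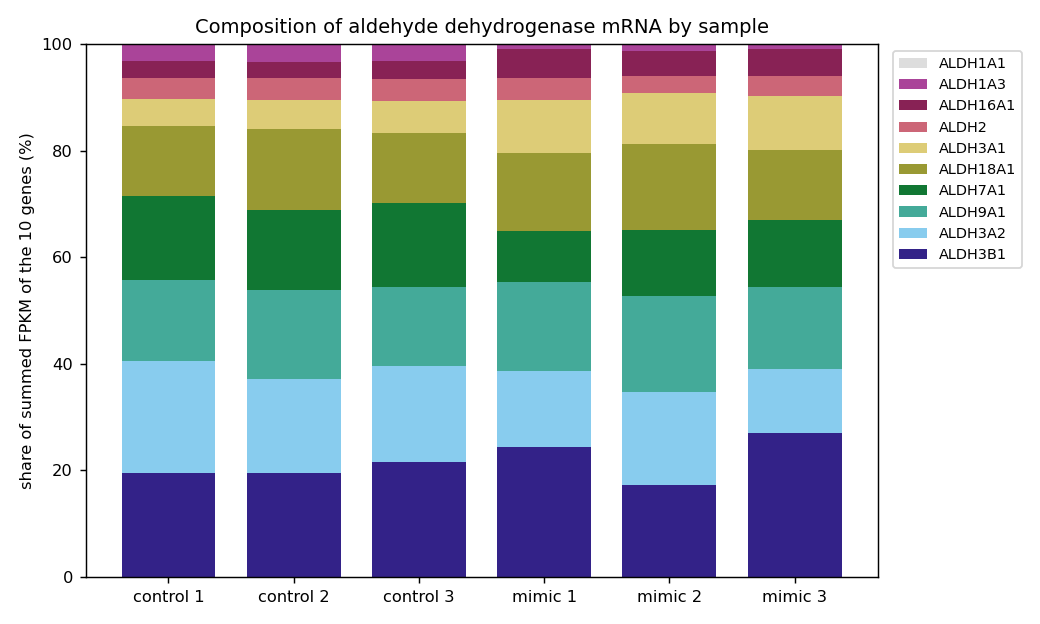
Share of the summed FPKM of the 10 members held by each gene (stacked bars, percent) in each sample. The ALDH3A1 band spans 4.97% to 5.98% in controls and 9.44% to 10.0% in mimic samples, and the ALDH1A3 band narrows from 3.05% or more to 1.23% or less.

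Control sample 3 was the lowest control for 9 of the 10, and mimic sample 3 was the lowest mimic sample for 6, while mimic sample 1 was the highest for 7. Sample 3 also had the largest share of summed FPKM from mitochondrial genes, 32.8% in the control and 38.9% in the mimic, against 14.6% to 24.3% in the other samples. The product of FPKM and gene length peaked at 1 value in each sample, and if that is 1 fragment the libraries held about 17000000 to 21300000 fragments in controls and 25400000 to 31300000 in mimic samples. The part of depth and of mitochondrial share in these orders was not tested. Without sample 3 of both groups, an alternative added after the data were seen, ALDH3A1 (1.05), ALDH16A1 (0.82) and ALDH1A3 (-1.24) kept their calls.

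The other 9 ALDH genes in the human genome were followed as a list. Of these, 5 were tested, 2 rose and none fell, on both scales. Over all tested genes 12.0% were called higher and 39.6% lower, and 26.9% and 27.4% after median-of-ratios scaling. ALDH4A1, the mitochondrial pyrroline-5-carboxylate dehydrogenase of proline breakdown, was at 1.88, 1.98 and 1.29 FPKM in controls and 3.21, 3.93 and 3.30 in mimic samples (log2 fold change 0.85, SE 0.18, limma adjusted p = 0.00436). Its mimic values were all above its controls. The 8mer printed above is in its UTR. ALDH1B1, a mitochondrial relative of ALDH2, had control values of 11.8, 13.3 and 10.2 FPKM and mimic values of 19.6, 19.6 and 16.9 (0.66, SE 0.15, limma adjusted p = 0.00594).

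ALDH5A1, the succinic semialdehyde dehydrogenase of GABA breakdown, had 10.4 ± 1.20 FPKM in controls and 9.84 ± 1.33 in mimic samples. ALDH6A1, which acts in valine breakdown, had 3.61 ± 0.64 and 3.34 ± 0.488, and ALDH1L2, a mitochondrial folate enzyme, had 1.33 ± 0.235 and 1.08 ± 0.299. None of these passed the test (limma adjusted p = 0.673, 0.677 and 0.384), and the groups overlapped in each. Under the filter, ALDH8A1 was at 0.837, 0.613 and 0.422 FPKM in controls and 0.121, 0.166 and 0.111 in mimic samples, and ALDH1A2, another retinaldehyde dehydrogenase, was at 0.441, 0.987 and 0.824 and at 0.281, 0.146 and 0.349. ALDH1L1 stayed at or under 0.144 FPKM and ALDH3B2 at or under 0.0185.

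Genes on the same pathways were counted from lists. Each count below stands beside 12.0% of all tested genes called higher and 39.6% lower, or 26.9% and 27.4% after median-of-ratios scaling. No list was tested as a set, so the counts describe single genes and not pathways. Of 7 alcohol dehydrogenases, which feed aldehydes to the ALDH enzymes, only ADH5, the formaldehyde-handling class III enzyme, reached the filter (30.4 ± 4.85 FPKM in controls, 35.6 ± 13.3 in mimic samples, limma adjusted p = 0.59). ADH1A, ADH1B, ADH1C and ADH7 were listed at 0 in every sample.

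In the retinoid list 13 of 26 genes were tested, 2 rose and 3 fell (5 and 2 after median-of-ratios scaling), with a median log2 fold change of -0.03 (0.28 after scaling). RDH13, a mitochondrial retinol dehydrogenase, fell from 17.5 ± 2.38 to 6.95 ± 0.765 FPKM (-1.27, SE 0.15, limma adjusted p = 0.00031), and RDH5 fell by 1.45 on the log2 scale. RARA, a retinoic acid receptor, rose (0.74, SE 0.20, limma adjusted p = 0.0142), but not without control sample 2 (limma adjusted p = 0.0501) or without sample 3 of both groups (limma adjusted p = 0.121). RXRA (0.39) and RDH11 (-0.46) also passed and were named after their values were seen. RDH11 was not called after median-of-ratios scaling (-0.14, limma adjusted p = 0.508) or quantile normalization (limma adjusted p = 0.0636).

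The proline and ornithine list, the setting of ALDH18A1, had 8 of 10 genes tested, with 3 higher and 2 lower (4 and none after scaling). GLUL, glutamine synthetase, rose from 5.41 ± 0.476 to 15.0 ± 2.22 FPKM (1.39, SE 0.15, limma adjusted p = 0.000212). PYCR3, a pyrroline-5-carboxylate reductase, rose by 0.60 (limma adjusted p = 0.0161, and adjusted p = 0.0575 without control sample 1). OAT, the ornithine aminotransferase, fell by 0.43 (limma adjusted p = 0.0405), a call lost under 11 of 18 alternatives. PYCR1 (0.55) and PRODH (-0.50), named after their values were seen, passed narrowly, and PRODH was not called after median-of-ratios scaling (-0.23, limma adjusted p = 0.283).

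Of 13 genes of lysine, choline and carnitine metabolism, the setting of ALDH7A1 and ALDH9A1, 4 were tested, 2 fell and none rose (1 and 1 after scaling, where GCDH, the glutaryl-CoA dehydrogenase, was called higher at 0.66, limma adjusted p = 0.0158, a gene named after its values were seen). PHYKPL, a lyase of hydroxylysine breakdown, fell from 36.2 ± 1.34 to 14.6 ± 0.965 FPKM (-1.28, SE 0.12, limma adjusted p = 0.000119). AADAT, the aminoadipate aminotransferase, fell by 0.62 (limma adjusted p = 0.0114), and was at -0.33 after median-of-ratios scaling (limma adjusted p = 0.115). The AADAT call was lost under 5 of 18 alternatives. Besides that scaling these were quantile normalization (-0.18, limma adjusted p = 0.349), GC and length correction with or without the block (-0.24), and leaving out sample 3 of both groups (limma adjusted p = 0.0866).

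Among other oxidases and reductases of aldehydes, 10 of 12 were tested, 2 rose and 3 fell (5 and 2 after scaling). AOX1, an aldehyde oxidase that needs a molybdenum cofactor, rose from 6.45 ± 1.91 to 17.9 ± 3.26 FPKM (1.42, SE 0.23, limma adjusted p = 0.00117). CBR4, a mitochondrial carbonyl reductase (-1.31), and ADHFE1, a hydroxyacid-oxoacid transhydrogenase (-1.49), fell. AKR1B1 (1.06) and CBR3 (-0.57), named after their values were seen, also passed. CBR3 was not called after median-of-ratios scaling (-0.28, limma adjusted p = 0.157) or quantile normalization (limma adjusted p = 0.332). In the list on sphingolipids and fatty aldehydes, the setting of ALDH3A2, 6 of 12 were tested, 2 rose and 1 fell (4 and 1 after scaling). SPHK2, a sphingosine kinase (0.71), and HACL1, a peroxisomal lyase that releases fatty aldehydes (0.76), rose. FAR1, a fatty acyl reductase that makes fatty alcohol, fell (-0.69), a call lost with correction for GC content and length (-0.05).

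The aryl hydrocarbon receptor is a known inducer of ALDH3A1. In these samples its targets CYP1A1, TIPARP and CYP1B1 were lower while ALDH3A1 was higher. Of 12 genes in the list of that receptor and of NFE2L2, the antioxidant regulator, 11 were tested, 1 rose and 6 fell (4 and 5 after scaling). The median log2 fold change of the 11 was -0.68 beside -0.29 for all tested genes, and -0.35 beside 0.01 after scaling. CYP1A1, the prototype target of the receptor, was at 45.3, 48.7 and 47.6 FPKM in controls and 6.08, 5.21 and 5.89 in mimic samples, with no overlap (-2.94, SE 0.12, limma adjusted p = 5.88e-06). TIPARP, another target, fell from 68.4 ± 4.47 to 10.8 ± 0.889 FPKM (-2.61), and CYP1B1 from 4.31 ± 0.419 to 0.733 ± 0.147 (-1.97). NQO1, a classic NFE2L2 target, was not called (0.27, limma adjusted p = 0.271), but was called higher after scaling (0.60, limma adjusted p = 0.011). TXNRD1 (0.61, limma adjusted p = 0.128) and KEAP1 (0.31, limma adjusted p = 0.303) were not called either. After scaling both were called higher (0.93 and 0.62, limma adjusted p = 0.0208 and 0.0335). They too were named after their values were seen. AHR itself (-1.12), its repressor AHRR (-0.68) and NFE2L2 (-0.97) were the others that fell and GCLM (0.68) the 1 that rose, named after their values were seen. NFE2L2 was not called after median-of-ratios scaling (-0.65, limma adjusted p = 0.0668). In the same samples ALDH3A1 rose by 0.99, and no test of a difference between genes was made.

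**Figure D4:**
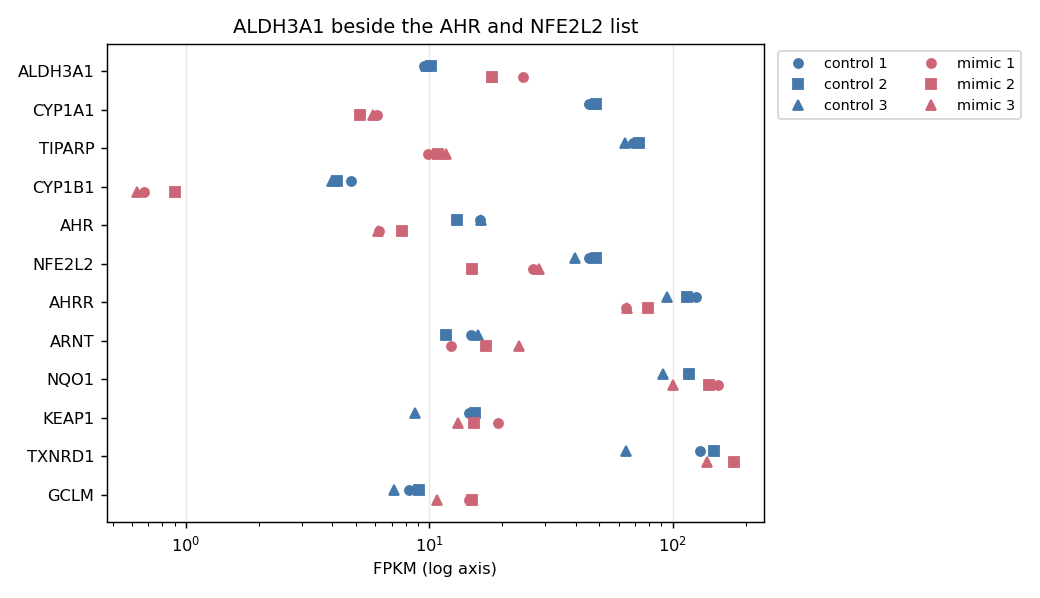
FPKM on a log axis of ALDH3A1 and of the 11 tested genes of the receptor and NFE2L2 list in each sample, controls in blue and mimic samples in red, with circle, square and triangle for samples 1, 2 and 3. ALDH3A1 lies to the right in mimic samples, while CYP1A1, TIPARP and CYP1B1 lie to the left, with CYP1A1 at 5.21 to 6.08 FPKM in mimic samples and 45.3 to 48.7 in controls.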

How the data were processed

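Expression was measured in 6 samples, and the deposited tables give FPKM per gene and sample, as the file headers show. The submitters' processing notes name FastQC, HISAT2 and hg38. How the authors derived FPKM, with which strand setting, annotation and tool versions, is not stated in those notes or headers (not given in the sources used here). Single-sample tables held the same values as the series table in all 6 cases.

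Groups came from sample titles. The 14439 genes averaging 1 FPKM or more were tested with limma 3.58.1 (trend and robust moderation, R 4.3.3) on log2(FPKM + 0.5), with no covariates and Benjamini-Hochberg adjustment at 0.05 across all tested genes. This scale understates changes of low genes. Values are means ± SD of 3 samples. The fit was tested on simulated data. Low values were not whole multiples of 1 fragment (at a tolerance of 1%, 12.5% to 15.0% were), so counts were not recovered and neither count tests nor counting intervals are given. Gene lengths, UTRs and overlaps are from GENCODE 29.

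The genes named are all 10 members, the 9 other ALDH genes, the 3 called genes with the smallest p of each list with at least 3 called, otherwise the 2 tested genes with the smallest p (or fewer), and the 2 genes most like the member that rose and the member that fell most. Members and lists were chosen with earlier results of these data known. The 18 alternatives cover pseudocount, filter, scaling, correction for GC and length, replicate block, moderation and samples left out.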

Additional observations from a re-analysis of the deposited data

How the results depend on the processing

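ALDH3A1 (log2 fold change 0.85 to 1.30) and ALDH16A1 (0.60 to 1.11) kept their direction and call under all 18 alternatives, and ALDH1A3 (-1.45 to -0.76) under the 17 that tested it. Called members numbered 2 higher and 1 lower. There were 5 higher after median-of-ratios scaling and 4 after GC and length correction, with or without the replicate block. There were 2 lower with no filter and 0 when a mean of 5 FPKM was required, where ALDH1A3 is not tested. Leaving out a single sample gave 2 to 3 higher and 1 lower.

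Of all genes, 1735 were higher and 5718 lower. Higher calls numbered 3889 after median-of-ratios scaling, 3592 after quantile normalization, 3793 after GC and length correction and 3929 with the replicate block added to it. Lower calls numbered 8755 of 35796 tested genes with no filter, and 2916 of 9456 when a mean of 5 FPKM was required. They numbered 3289, 3390 and 3399 under quantile normalization, GC and length correction and that correction with the block. Without single samples 1256 to 1822 were higher and 4695 to 5732 lower. Without sample 3 of both groups, an alternative chosen after seeing the data, 1327 were higher and 4601 lower.

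Among the named genes, signs turned under these alternatives for ones not called in the main test. With median-of-ratios scaling, ALDH3A2 was at 0.104, ALDH7A1 at 0.053, ALDH1L2 at 0.015, ALDH5A1 at 0.23 and ALDH6A1 at 0.19. With GC and length correction, with or without the block, they were at 0.086, 0.194, 0.271, 0.16 and 0.33 in that order. After quantile normalization ALDH1L2 was at 0.58, ALDH5A1 at 0.20 and ALDH6A1 at 0.47 (limma adjusted p = 0.047). Leaving out single samples, ALDH2 ran from -0.128 (without mimic sample 1) to 0.168, ADH5 from -0.103 (without mimic sample 1) to 0.398, ALDH5A1 from -0.176 to 0.024 (without mimic sample 3) and ALDH6A1 from -0.194 to 0.026 (without control sample 2). The cause was not tested.

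Whether the replicate numbers pair the samples is not in the labels, and these values do not settle it. Deviations of same-numbered samples correlated at 0.18, -0.05 and 0.22 across genes. Those of differently numbered samples correlated at -0.28 to 0.13. With the replicate block, 2117 genes were higher and 5994 lower, and called members stayed at 2 higher and 1 lower. The log2 ratio of ALDH3A1 to ALDH3A2 also differed by 1.20 with the block. In a balanced design the block cannot change that difference, so it is no check on it. The depth is known only as implied fragments, which limits what can be said of ALDH1A1.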

Other observations

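Among genes averaging 5 FPKM or more, those whose log2(FPKM + 0.5) followed ALDH3A1 most closely over the 6 samples were GNAI2, an inhibitory G protein subunit (Pearson r = 0.997), and PRKAR1B, a regulatory subunit of protein kinase A (r = 0.997). PRKAR1B was at 6.18, 6.42 and 5.62 FPKM in controls and 19.2, 13.5 and 12.9 in mimic samples, so it shares the high value of mimic sample 1. Those closest to ALDH1A3 were UBXN7, an adaptor of the VCP segregase (r = 0.998), and GPCPD1, a glycerophosphocholine phosphodiesterase (r = 0.998). GPCPD1 was at 12.3, 12.4 and 10.1 FPKM in controls and 4.71, 4.78 and 3.70 in mimic samples, and sample 3 was the lowest in both groups, as for ALDH1A3. The 6 points fall into 2 groups and the genes share libraries, so these values describe likeness only.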
